A study of Mus musculus with 8 samples.

Results

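The 10 genes described here encode carriers and release factors of cytotoxic granules, a list drawn up by their roles with earlier results of these data known: Srgn, Nkg7, Lamp1, Ctsw, Ctsc, Unc13d, Rab27a, Stx11, Serpinb9 and Fasl. They are 10 of 23746 rows in the deposited gene tables, and all 10 were among the 9782 rows kept for testing, those that reached 1 FPKM (a read density corrected for the length of the transcript and the size of the library) in 2 libraries or more. The series holds RNA-seq of CD8+ T cells from BALB/c mice that bound the AH1 tetramer, a reagent loaded with an epitope of an endogenous retroviral envelope protein. The cells were divided by genotype and by sorted subset, with 2 libraries in each group: term diff cells of Cd69-knockout mice (Cd69KO), term diff cells of wild-type mice (Cd69WT), stem-like cells of Cd69KO mice and stem-like cells of Cd69WT mice. Every group shares the strain, the tetramer gate and the live sort on a FACSAria III. Tumour, age, sex and number of mice, the way Cd69 was inactivated, the gates of the subsets, and whether libraries share a mouse are absent from the labels, so p-values measure the spread between these libraries, which may be technical.

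A cytotoxic granule is a secretory lysosome that a CD8+ T cell releases towards the cell it kills. Serglycin holds perforin and granzymes in the granule core, cathepsin C trims granzyme precursors, and Rab27a, Munc13-4 and syntaxin 11 dock, prime and fuse the granule with the plasma membrane. Serpin B9 inhibits granzyme B inside the killer cell, and Fas ligand kills through a death receptor beside the granule contents; in humans, loss of RAB27A, UNC13D or STX11 causes immune disease with failed granule release.

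The limits of the deposited confidence intervals imply 2055411 to 2591061 fragments per library. Rows of small RNA held 56.1% of the FPKM sum in Cd69WT term diff replicate 2 and 63.7% in Cd69WT stem-like replicate 2, against 78.1% to 84.5% in the other 6 libraries, so the Cd69WT calls that end without both of those libraries are named beside the results. Of the implied fragments, small RNA held 5.52% in Cd69WT term diff replicate 2 and 8.46% in Cd69WT stem-like replicate 2. The other 6 libraries had 7.15% to 9.53%, a range that includes this stem-like library. Cd69, the knocked-out gene (chr6:129267325-129275369), had 2.21 and 2.43 FPKM in Cd69KO term diff libraries, against 10.4 and 12.9 FPKM in Cd69WT term diff libraries. It had 3.69 and 2.42 FPKM in Cd69KO stem-like libraries, against 22.5 and 23.4 FPKM in Cd69WT stem-like libraries, so the libraries matched their genotype labels. Tcf7, a transcription factor of progenitor T cells, lay at 0.228 to 0.755 FPKM in term diff libraries and 40.6 to 64.2 FPKM in stem-like libraries. CD8 T cell markers were high throughout (Cd8a 126 to 166 FPKM, and Cd3g, the highest of the list, up to 605 FPKM), whereas Ncr1 of NK cells, Csf1r of macrophages and Elane of neutrophils stayed at or below 0.418 FPKM in each library. Other genes of the NK cell and myeloid marker lists were higher. Klre1 reached 36.4 FPKM, Fcer1g 29.8 FPKM, Cd68 3.32 FPKM and Lyz2 3.11 FPKM, and Eomes averaged 6.23 FPKM in Cd69WT stem-like cells.

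The members' levels spanned 5.56 to 198 FPKM, a scale that is corrected for transcript length and so lets genes be set side by side. Behind them stood 94 to 1026 implied fragments, which alone give a counting error of 3.12% to 10.3%. Nkg7, Srgn and Ctsw were the 3 most abundant members in each of the 4 groups. In Cd69KO term diff cells Nkg7 averaged 180.0 FPKM, above Srgn at 119, Ctsw at 55.9, Fasl at 32.9, Serpinb9 at 30.6, Rab27a at 25.6, Lamp1 at 10.1, Unc13d at 9.81, Ctsc at 8.67 and Stx11 at 6.68 FPKM. The libraries of neighbours in that order did not overlap, except for Fasl with Serpinb9 and Lamp1 with Unc13d. Cd69WT term diff cells had the same first 3 genes, with Nkg7 at 112, Srgn at 75.6 and Ctsw at 49.3 FPKM, and at the low end, with means of 6.80 to 8.01 FPKM, Lamp1 overlapped both Ctsc and Stx11, which did not overlap each other.

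In stem-like cells Srgn took the first place. Its mean level was 103 FPKM in Cd69KO stem-like libraries, where it overlapped Nkg7 at 95.8 FPKM, and 102 FPKM in Cd69WT stem-like libraries, where it lay above Nkg7 at 84.2 FPKM. Ctsw, Fasl and Serpinb9 followed in both genotypes without overlap between neighbours. Rab27a, next after Fasl and Serpinb9 in both term diff groups, overlapped Lamp1 and Unc13d in Cd69KO stem-like cells and Unc13d and Stx11 in Cd69WT stem-like cells. Ctsc was the lowest member in both stem-like groups, at 7.74 FPKM in Cd69KO and 6.95 FPKM in Cd69WT.

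**Figure D1:**
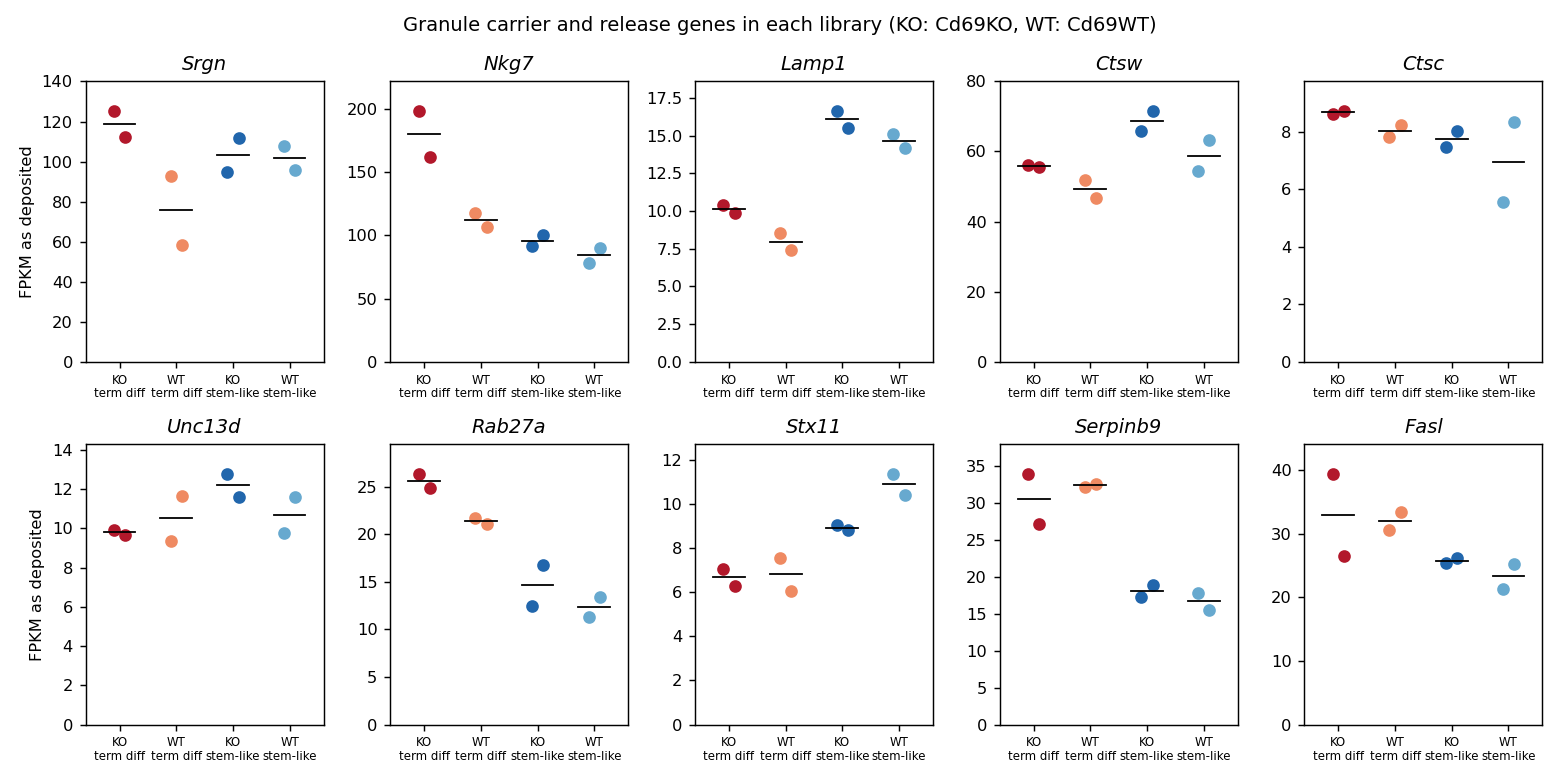
Level of each granule gene in each library, in FPKM as deposited on a linear axis from 0, with a line at the mean of the 2 libraries of a group. Rab27a and Serpinb9 lie higher in each of the 4 term diff libraries than in each of the 4 stem-like libraries, and Lamp1 and Stx11 lie lower.

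Term diff cells had more Rab27a and Serpinb9 RNA and less Lamp1 RNA than stem-like cells in both genotypes, with differences between 1.69-fold and 1.94-fold for the rises. Nkg7 passed the test in Cd69KO and Stx11 in Cd69WT, while Srgn, Ctsw, Ctsc, Unc13d and Fasl did not pass in either genotype. Of the 10 members 3 rose and 1 fell between the Cd69KO subsets at an adjusted p under 0.05, where 3.88% of all tested genes rose and 5.56% fell (9.45% in both directions; 380 higher and 544 lower as deposited, and 260 higher and 674 lower after scaling to an equal sum). Between the Cd69WT subsets 2 rose and 2 fell, where 7.24% of all genes rose and 5.83% fell (13.1% in both directions; 708 higher and 570 lower as deposited, but with median-of-ratios scaling 653 were higher and 743 lower, and with quantile normalization 652 and 717). The members' median difference was 0.17 in Cd69KO, beside -0.03 over all genes, and 0.09 in Cd69WT, beside 0.06, as log2(FPKM + 1). In bulk RNA, fewer cells that express a gene and less RNA per cell cannot be told apart.

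Over both genotypes, the 4 term diff libraries lay above the 4 stem-like libraries for Nkg7, Rab27a, Serpinb9 and Fasl, where this held for 10.9% of all genes. They lay below them for Lamp1 and Stx11, where this held for 11.1% of all genes.

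Among the exocytosis factors, Rab27a, the small GTPase that docks granules at the plasma membrane (chr9:73044865-73097592), had 26.3 and 24.9 FPKM in Cd69KO term diff libraries, against 12.5 and 16.8 FPKM in Cd69KO stem-like libraries. It had 21.7 and 21.1 FPKM in Cd69WT term diff libraries, against 11.3 and 13.4 FPKM in Cd69WT stem-like libraries. Every term diff library was thus above every stem-like one. Rab27a rose by a similar amount in each genotype: 0.78 ± 0.15 in Cd69KO (adjusted p = 0.0174, limma) and 0.75 ± 0.15 in Cd69WT (adjusted p = 0.0168), as differences of log2(FPKM + 1) with their standard errors.

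Stx11, a SNARE protein of granule fusion (chr10:12939983-12964259), went the other way. It had 7.07 and 6.29 FPKM in Cd69KO term diff libraries, against 9.04 and 8.81 FPKM in Cd69KO stem-like libraries, and its difference of -0.37 ± 0.13 did not pass (adjusted p = 0.123, limma). In Cd69WT it had 7.53 and 6.07 FPKM in term diff libraries, against 11.4 and 10.4 FPKM in stem-like libraries, and it fell (-0.61 ± 0.13, adjusted p = 0.0199, limma). The subset difference of Stx11 was not shown to differ between the genotypes (interaction 0.24 ± 0.19, adjusted p = 0.651, limma).

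Unc13d, the gene of the priming factor Munc13-4 (chr11:116062096-116077961), lay at 9.35 to 11.7 FPKM over the 4 term diff libraries and 9.74 to 12.8 FPKM over the 4 stem-like libraries, with overlap. Its difference was -0.29 ± 0.14 in Cd69KO (adjusted p = 0.256, limma) and -0.02 ± 0.14 in Cd69WT (adjusted p = 0.937), with a 95% interval of -0.34 to 0.30 in Cd69WT. So of the 3 release factors 1 rose in both genotypes, 1 fell in Cd69WT and 1 passed in neither.

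On the granule membrane, Nkg7, a protein that mouse lymphocytes need for full degranulation (chr7:43437138-43438246), had 198 and 162 FPKM in Cd69KO term diff libraries, against 91.6 and 99.97 FPKM in Cd69KO stem-like libraries. In Cd69WT it had 118 and 107 FPKM in term diff libraries, against 78.3 and 90.2 FPKM in stem-like libraries. The 4 term diff libraries lay above the 4 stem-like ones, as they did for 10.9% of all genes. Nkg7 rose in Cd69KO (0.90 ± 0.17, adjusted p = 0.0141, limma), but its difference of 0.41 ± 0.17 in Cd69WT did not pass (adjusted p = 0.155), and the test between these differences gave 0.49 ± 0.24 (unadjusted p = 0.0736, adjusted p = 0.554). The summed level of 5 NK cell markers, 3 of them kept, was 37.4 to 38.0 FPKM in Cd69KO term diff, 28 to 32.0 FPKM in Cd69WT term diff, 20.0 to 23.0 FPKM in Cd69KO stem-like and 25.7 to 28.5 FPKM in Cd69WT stem-like libraries. Klre1 carried that sum, at up to 36.4 FPKM, and rose in Cd69KO (1.1, adjusted p = 0.00325, limma), whereas Eomes of the same list fell there, at 1.51 FPKM in Cd69KO term diff, against 5.11 FPKM in Cd69KO stem-like cells (-1.28, adjusted p = 0.0168). The list's median was 0.18 in Cd69KO and -0.71 in Cd69WT. The markers of this list that were not kept stayed low: Ncr1 was listed at 0 in 1 library and reached 0.375 FPKM, and Klrb1c reached 0.195 FPKM. The list's part in the Nkg7 difference was not tested.

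Lamp1, the lysosomal membrane glycoprotein CD107a that marks degranulation when it reaches the cell surface (chr8:13159135-13175338), fell in both genotypes. It had 10.4 and 9.88 FPKM in Cd69KO term diff libraries, against 16.6 and 15.5 FPKM in Cd69KO stem-like libraries. Cd69WT had 8.53 and 7.43 FPKM in term diff libraries, against 15.1 and 14.2 FPKM in stem-like libraries. The highest term diff library was below the lowest stem-like one. The differences were -0.62 ± 0.12 in Cd69KO (adjusted p = 0.0144, limma) and -0.80 ± 0.12 in Cd69WT (adjusted p = 0.0036).

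Markers of tumour and stroma cells also had higher sums in stem-like libraries, at 8.62 to 11.8 FPKM over the 4 term diff libraries and 27.8 to 35.2 FPKM over the 4 stem-like ones. Of the 9 genes in that list 2 were kept, with Igfbp7 up to 20.5 FPKM. The 5 CD4 and regulatory T cell markers, 4 of them kept, summed to 9.79 to 13.5 FPKM in term diff and 23.8 to 29.8 FPKM in stem-like libraries, with Il2ra, which CD8+ T cells can express too, up to 14.7 FPKM. Cd4 itself lay at 1.38 to 4.01 FPKM in term diff and 2.53 to 5.52 FPKM in stem-like libraries, with overlap. The part of such tumour, stroma or CD4 cells in the Lamp1 and Stx11 differences was not tested.

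Serpinb9, the granzyme B inhibitor (chr13:33004541-33017955), had 34.0 and 27.2 FPKM in Cd69KO term diff libraries, against 17.2 and 19.0 FPKM in Cd69KO stem-like libraries. Cd69WT had 32.2 and 32.7 FPKM in term diff libraries, against 17.9 and 15.5 FPKM in stem-like libraries. All 4 term diff libraries were above all 4 stem-like ones. Serpinb9 rose by 0.72 ± 0.14 in Cd69KO (adjusted p = 0.0168, limma) and by 0.92 ± 0.14 in Cd69WT (adjusted p = 0.00483). It belongs to a family of related mouse serpins, so how reads were split between it and its paralogs is uncertain.

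Fasl, the death ligand (chr1:161780692-161788495), had 39.4 and 26.5 FPKM in Cd69KO term diff libraries, against 25.4 and 26.1 FPKM in Cd69KO stem-like libraries. In Cd69WT it had 30.5 and 33.4 FPKM in term diff libraries, against 21.3 and 25.3 FPKM in stem-like libraries. The 4 term diff libraries lay above the 4 stem-like ones, as they did for 10.9% of all genes. Cd69KO term diff replicate 2 was above the higher Cd69KO stem-like library by a small margin. The differences of 0.32 ± 0.19 in Cd69KO (adjusted p = 0.342, limma) and 0.44 ± 0.19 in Cd69WT (adjusted p = 0.164) did not pass.

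Srgn, the gene of the granule proteoglycan serglycin (chr10:62494428-62507755), had 125 and 112 FPKM in Cd69KO term diff libraries, against 95 and 112 FPKM in Cd69KO stem-like libraries. In Cd69WT it had 92.9 and 58.3 FPKM in term diff libraries, against 108 and 95.6 FPKM in stem-like libraries. Term diff libraries were thus the higher ones in Cd69KO and the lower ones in Cd69WT. In Cd69KO, however, term diff replicate 2 (112.2 FPKM) and stem-like replicate 2 (111.7 FPKM) differed by less than their counting errors of 3.96% and 3.82%. Neither difference passed, at 0.20 ± 0.22 in Cd69KO (adjusted p = 0.625, limma) and -0.46 ± 0.22 in Cd69WT (adjusted p = 0.227), and nor did their difference (0.66 ± 0.32, unadjusted p = 0.0707, adjusted p = 0.553).

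Neither granule protease passed the test between the subsets. Ctsw, the gene of cathepsin W, a cysteine protease of CD8+ T and NK cells (chr19:5465240-5468498), had 56.1 and 55.7 FPKM in Cd69KO term diff libraries, against 65.8 and 71.5 FPKM in Cd69KO stem-like libraries. Cd69WT had 51.8 and 46.7 FPKM in term diff libraries, against 54.4 and 63.3 FPKM in stem-like libraries. Its differences of -0.29 ± 0.14 (adjusted p = 0.235, limma) in Cd69KO and -0.25 ± 0.14 (adjusted p = 0.277) in Cd69WT did not pass. The libraries did not overlap within a genotype, but the share of all genes for which this held was not determined.

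Ctsc, which encodes cathepsin C, the peptidase that activates granzymes (chr7:88278093-88310875), lay at 7.81 to 8.71 FPKM over the 4 term diff libraries and 5.56 to 8.35 FPKM over the 4 stem-like libraries, with overlap. Its differences were 0.15 (95% interval -0.23 to 0.52, adjusted p = 0.63, limma) in Cd69KO and 0.20 (95% interval -0.18 to 0.58, adjusted p = 0.472) in Cd69WT. Ctsc is also abundant in myeloid cells, whose markers had sums of 20.9 to 27.1 FPKM in Cd69KO term diff, 32.7 to 33.5 FPKM in Cd69WT term diff, 12 to 13.5 FPKM in Cd69KO stem-like and 8.34 to 13.0 FPKM in Cd69WT stem-like libraries. Of the 14 myeloid markers 4 were kept. Fcer1g, which NK cells also express, made up most of the term diff sums, with means of 19.1 FPKM in Cd69KO term diff and 28.4 FPKM in Cd69WT term diff, against 0.772 FPKM in Cd69KO stem-like and 1.35 FPKM in Cd69WT stem-like cells. The other kept markers, Cd68, Cd74 and Lyz2, had differences below 0 in both genotypes, so the list's median was -0.70 in Cd69KO and -0.55 in Cd69WT. Csf1r stayed at 0.0964 to 0.418 FPKM, and C1qa was listed at 0 in 3 libraries and reached 0.794 FPKM in another. Their part in the Ctsc level was not tested.

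**Figure D2:**
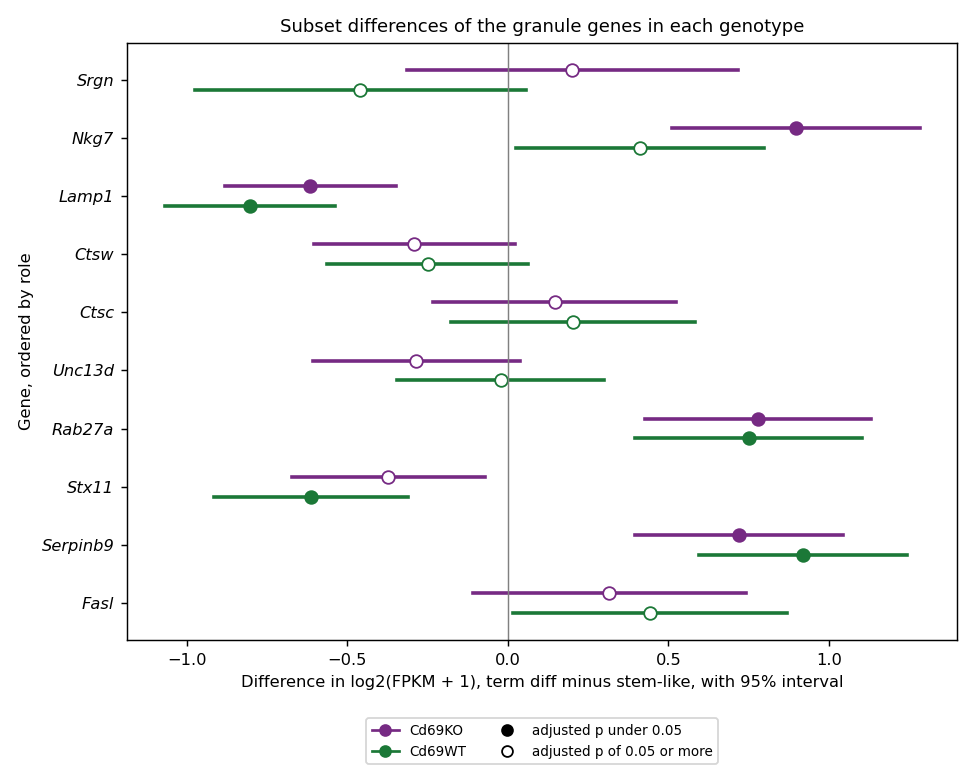
Difference of each granule gene between the subsets, term diff minus stem-like, as log2(FPKM + 1) with the 95% interval of the limma fit, for Cd69KO (upper bar of each pair) and Cd69WT (lower bar). Filled points have an adjusted p under 0.05: Nkg7, Lamp1, Rab27a and Serpinb9 in Cd69KO, and Lamp1, Rab27a, Stx11 and Serpinb9 in Cd69WT.

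With 1 library left out, its group is a lone library that is assumed to vary like the other groups, and fewer genes passed in all (287 to 418 in place of 924 in Cd69KO, when the library was one of that genotype). Without Cd69KO stem-like replicate 1 none of the 4 passed (adjusted p = 0.114 for Nkg7, 0.115 for Lamp1, 0.123 for Rab27a and 0.129 for Serpinb9, limma), nor did any without Cd69KO term diff replicate 1 (0.0900, 0.0596, 0.0924 and 0.0942 in that order). Without Cd69KO stem-like replicate 2 the calls of Nkg7, Lamp1 and Serpinb9 ended (adjusted p = 0.0578 to 0.0583), without Cd69KO term diff replicate 2 those of Lamp1 (0.0868) and Rab27a (0.0777), and after quantile normalization that of Nkg7, at 0.50 (0.146). In Cd69WT, Rab27a was lost without Cd69WT stem-like replicate 1 (0.0922) or term diff replicate 1 (0.0744) or 2 (0.0697), and Stx11 without stem-like replicate 1 (0.102) or 2 (0.0524) or term diff replicate 2 (0.115). Lamp1 and Serpinb9 stayed past the threshold in Cd69WT when any 1 library was left out. Where a call ended in this way the difference itself stayed at 0.75 to 0.96 for Nkg7, -0.66 to -0.57 for Lamp1, 0.58 to 0.82 for Rab27a and 0.57 to 0.79 for Serpinb9 in Cd69KO, and at 0.64 to 0.77 for Rab27a and -0.67 to -0.48 for Stx11 in Cd69WT. Without both Cd69WT replicate 2 libraries no member passed there, at -0.76 for Lamp1 (0.0677), 0.81 for Serpinb9 (0.0935), 0.88 for Rab27a (0.0938) and -0.53 for Stx11 (0.164), and 362 of all genes passed in place of 1278.

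The promoters of the 5 members that passed in at least 1 genotype are shown to set the start regions of the 3 that rose (Rab27a, Serpinb9, Nkg7) beside those of the 2 that fell (Lamp1, Stx11). Each runs 5′ to 3′ from 250 bases before to 50 bases after a RefSeq start on build GRCm38.p6, which is the C57BL/6J sequence and not that of BALB/c. Of the 10 members 8 had a promoter in the RefSeq table. Rab27a and Srgn had 2 each, and the promoter whose start lay nearest to the 5′ end of the gene's deposited position was used. The RefSeq gene of Serpinb9 begins upstream of its window, at chr13:32997061. Matches at other starts were not searched. Capitals mark matches, on either strand, to TGTGGT (RUNX factors), GGTGTGA (T-box factors), CTTTGA (TCF/LEF factors), GGAAGT (ETS factors) and TCACGTG (the CLEAR element bound by TFEB at lysosomal genes); TGANTCA (AP-1) was also searched and had no match in these 5. The windows are chr9:73044560-73044859 on the plus strand for Rab27a, chr13:33004291-33004590 (plus) for Serpinb9, chr7:43436888-43437187 (plus) for Nkg7, chr8:13158911-13159210 (plus) for Lamp1 and chr10:12964210-12964509 (minus) for Stx11.
Rab27a: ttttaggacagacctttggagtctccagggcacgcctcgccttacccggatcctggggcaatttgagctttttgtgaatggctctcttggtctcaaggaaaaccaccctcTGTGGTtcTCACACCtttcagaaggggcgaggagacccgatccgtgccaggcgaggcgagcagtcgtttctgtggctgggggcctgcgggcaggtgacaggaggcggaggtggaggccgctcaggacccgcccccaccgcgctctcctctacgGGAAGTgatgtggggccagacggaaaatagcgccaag
Serpinb9: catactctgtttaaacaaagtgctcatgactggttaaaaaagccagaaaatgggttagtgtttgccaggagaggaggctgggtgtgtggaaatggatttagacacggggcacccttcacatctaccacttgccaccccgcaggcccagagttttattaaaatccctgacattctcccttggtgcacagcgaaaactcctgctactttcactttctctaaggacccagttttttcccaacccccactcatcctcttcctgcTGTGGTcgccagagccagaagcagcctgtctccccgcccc
Nkg7: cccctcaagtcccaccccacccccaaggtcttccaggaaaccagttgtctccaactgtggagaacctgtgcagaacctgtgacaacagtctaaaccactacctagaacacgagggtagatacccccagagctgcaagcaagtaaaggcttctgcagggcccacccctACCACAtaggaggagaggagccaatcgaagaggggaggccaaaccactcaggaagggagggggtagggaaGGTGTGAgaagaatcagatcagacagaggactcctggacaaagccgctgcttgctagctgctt
Lamp1: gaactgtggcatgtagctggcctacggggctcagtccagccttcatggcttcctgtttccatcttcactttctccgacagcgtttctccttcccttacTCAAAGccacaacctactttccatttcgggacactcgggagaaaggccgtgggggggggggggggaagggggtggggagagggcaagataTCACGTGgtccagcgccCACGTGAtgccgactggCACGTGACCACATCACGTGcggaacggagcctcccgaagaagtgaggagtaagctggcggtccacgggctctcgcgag
Stx11: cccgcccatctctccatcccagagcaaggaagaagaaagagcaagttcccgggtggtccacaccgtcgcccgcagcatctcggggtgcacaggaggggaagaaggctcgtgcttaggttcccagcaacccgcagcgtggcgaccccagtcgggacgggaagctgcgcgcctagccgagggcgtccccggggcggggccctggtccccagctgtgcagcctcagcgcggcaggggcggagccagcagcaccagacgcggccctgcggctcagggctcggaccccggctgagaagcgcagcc

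Each of the 3 promoters of genes that rose held a RUNX match, 140 bases before the start in Rab27a, 83 before it in Nkg7 and 10 after it in Serpinb9, and such a match occurs in 16.8% of 32851 RefSeq promoters of this length. A T-box match stood 132 bases before the start of Rab27a and 13 before that of Nkg7, against 3.98% of all promoters. Rab27a also had an ETS match 13 bases after its start (23.8% of promoters). The Lamp1 promoter held the CLEAR letters at 4 places, 62, 45, 28 and 16 bases before the start; 3.77% of promoters hold them at all, and 25 promoters, or 0.0761%, hold them at 4 or more places. Its RUNX match, 22 bases before the start, shares a base with the CLEAR match at 28, and its TCF/LEF match (16.0% of promoters) lies at 152. Matches were not limited to the members that rose: of the 8 member promoters 5 held a RUNX match, with Srgn and Lamp1 among them, and 3 held a T-box match, with Ctsc among them. The Stx11 window held none of the 6 motifs. A match describes these letters only, and no binding was measured.

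Around the members, the granule's contents had the highest share of called genes of 7 related lists in the fit as reported, at 66.7% in Cd69KO and 44.4% in Cd69WT, beside 9.45% and 13.1% of all genes. In Cd69WT this was 4 of 9 genes, against 4 of 12 for the Fas and death receptor pathway. The counts of both lists changed between the alternatives, so first place there is uncertain. The share was 13.3% and 26.7% for docking and fusion, 20.0% in each genotype for biogenesis and transport, 12.5% in each for lysosomal genes, 22.2% in each for protease inhibitors, 33.3% in each for the Fas and death receptor pathway and 13.3% in each for glycosaminoglycan attachment, so the docking list in Cd69KO and the lysosomal and glycosaminoglycan lists in both genotypes lay near the background. Of 9 tested granule cargo genes (granzymes and perforin) 6 rose in Cd69KO and 4 in Cd69WT, with 0 lower and medians of 1.72 and 0.64. Of these, Gzmc, Gzmd, Gzme and Gzmf averaged only 0.0804 to 0.407 FPKM in the stem-like groups. They reached the filter of 1 FPKM only through term diff libraries, where they were higher. Their calls, and the shares of this list that include them, are thus not independent of the filter. Gzmb, the main granzyme, averaged 399 FPKM in Cd69KO term diff, against 49.4 FPKM in Cd69KO stem-like cells (2.98 ± 0.17), and 279 FPKM in Cd69WT term diff, against 26.0 FPKM in Cd69WT stem-like cells (3.38 ± 0.17). Prf1, the pore-forming perforin, rose by 1.72 ± 0.17 in Cd69KO and 1.91 ± 0.17 in Cd69WT, and Gzmf by 2.87 and 2.06. Gzmd (2.58) and Gzme (1.88) rose in Cd69KO, and Gzmc rose in both genotypes, by 0.95 in Cd69KO and 0.89 in Cd69WT. The call of Gzmc ended without 3 of the 4 Cd69KO libraries in Cd69KO (adjusted p = 0.0598 to 0.0671, limma), with a pseudocount of 0.1 (0.0613) or with voom (0.0588), and without Cd69WT stem-like replicate 1 or term diff replicate 2 in Cd69WT (0.0519 to 0.0615). Gzmd and Gzmf are close paralogs whose reads may be shared. Beside these, the carrier Srgn was not called in either genotype.

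The docking and fusion list (15 of 21 genes tested) had 2 higher and 0 lower in Cd69KO and 3 higher and 1 lower in Cd69WT, with medians of 0.20 and 0.24. Sytl2, an effector of Rab27a that tethers vesicles to the membrane, had the lowest p of the list in both. It averaged 26.7 FPKM in Cd69KO term diff, against 4.38 FPKM in Cd69KO stem-like cells (2.37 ± 0.16, adjusted p = 0.000145, limma). In Cd69WT it averaged 24.7 FPKM in term diff, against 3.35 FPKM in stem-like cells (2.56 ± 0.16, adjusted p = 7.98e-05). Sytl1, another synaptotagmin-like Rab27a effector, rose by 1.14 in Cd69KO and 0.95 in Cd69WT. The call of Sytl1 ended without Cd69KO stem-like replicate 1 (adjusted p = 0.0543) and, in Cd69WT, without stem-like replicate 1 or term diff replicate 2 (0.0532 to 0.0603). In Cd69WT Sytl3 rose (0.68) and Syt11 fell (-0.55), calls that ended without any of the 4 Cd69WT libraries (adjusted p = 0.0628 to 0.139) and, for Syt11, also without either Cd69KO stem-like library (0.0513 and 0.0514).

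In granule biogenesis and transport 20 of 22 listed genes were tested; 2 rose and 2 fell in Cd69KO, 3 rose and 1 fell in Cd69WT, and the medians were 0.03 and 0.14. Lyst, the lysosome trafficking regulator lost in beige mice, rose by 0.75 ± 0.14 in Cd69KO and 1.08 ± 0.14 in Cd69WT. Igf2r, a mannose 6-phosphate receptor that delivers enzymes to lysosomes, rose by 0.71 ± 0.13 and 0.96 ± 0.13. Ap3s1, a subunit of the AP-3 adaptor, fell by 1.05 in Cd69KO and by 0.83 in Cd69WT. Ap3b1, another AP-3 subunit, fell by 0.58 in Cd69KO, and Gnptab, which makes the mannose 6-phosphate tag, rose by 0.76 in Cd69WT. Apart from Lyst and Igf2r in Cd69WT, which passed with any 1 library left out, each of these calls ended without 2 to 4 of the libraries of its own genotype (adjusted p = 0.0609 to 0.185 in Cd69KO and 0.0576 to 0.148 in Cd69WT).

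Beside the fall of Lamp1, the lysosomal list was mixed. Of 16 tested cathepsins and membrane proteins 2 rose and 0 fell in Cd69KO, with a median of 0.31, and 1 rose and 1 fell in Cd69WT, with a median of 0.20. Ctsd, the aspartic protease cathepsin D, averaged 119 FPKM in Cd69KO term diff, against 43.4 FPKM in Cd69KO stem-like cells (1.44 ± 0.16, adjusted p = 0.00173, limma), and 90.0 FPKM in Cd69WT term diff, against 41.3 FPKM in Cd69WT stem-like cells (1.11 ± 0.16, adjusted p = 0.00423). Ctsz fell in Cd69WT (-1.38 ± 0.17).

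Among 9 protease inhibitors 2 rose and 0 fell in Cd69KO (median 0.19), and 1 rose and 1 fell in Cd69WT (median -0.02). Serpinb9b, a paralog of Serpinb9, averaged 9.88 FPKM in Cd69KO term diff, against 1.70 FPKM in Cd69KO stem-like cells (2.01 ± 0.18, adjusted p = 0.00056, limma), and 6.23 FPKM in Cd69WT term diff, against 1.29 FPKM in Cd69WT stem-like cells (1.68 ± 0.18, adjusted p = 0.000875). Cst3, the secreted inhibitor cystatin C, fell in Cd69WT (-1.26 ± 0.21), and Cstb, cystatin B, rose in Cd69KO (0.59), a call that ended without Cd69KO stem-like replicate 1 or either Cd69KO term diff library (adjusted p = 0.0839 to 0.151).

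Of 12 genes of the Fas and death receptor pathway 2 rose and 2 fell in Cd69KO (median -0.09), and 1 rose and 3 fell in Cd69WT (median 0.04). Fas, the receptor of Fas ligand, averaged 0.854 FPKM in Cd69KO term diff, against 2.79 FPKM in Cd69KO stem-like cells (-1.03 ± 0.16, adjusted p = 0.00642, limma), and 0.773 FPKM in Cd69WT term diff, against 3.30 FPKM in Cd69WT stem-like cells (-1.28 ± 0.16, adjusted p = 0.00183). Lta, the cytokine lymphotoxin alpha, fell by 1.65 in Cd69KO and by 1.3 in Cd69WT. Tnfsf10, the death ligand TRAIL, fell in Cd69WT (-0.78).

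Of 15 tested enzymes that attach glycosaminoglycan chains, such as those serglycin carries, 1 rose and 1 fell in each genotype, with medians of -0.06 in Cd69KO and 0.06 in Cd69WT. Chsy1, a chondroitin sulfate synthase, averaged 35.0 FPKM in Cd69KO term diff, against 14.0 FPKM in Cd69KO stem-like cells (1.26 ± 0.13, adjusted p = 0.000867, limma), and 33.5 FPKM in Cd69WT term diff, against 12.4 FPKM in Cd69WT stem-like cells (1.37 ± 0.13, adjusted p = 0.000476). Ext1, which builds heparan sulfate, fell by 0.94 in Cd69KO and by 0.79 in Cd69WT, and its call ended without 3 of the 4 libraries of either genotype (adjusted p = 0.0639 to 0.122).

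Without both Cd69WT replicate 2 libraries, these calls between the Cd69WT subsets also ended: Ctsd (1.07, adjusted p = 0.0704, limma), Cst3 (-1.09, 0.111), Tnfsf10 (-0.86, 0.0562), Gzmc (0.99, 0.0724), Sytl1 (0.77, 0.126), Sytl3 (0.71, 0.158), Syt11 (-0.48, 0.256), Ap3s1 (-1.0, 0.119), Gnptab (0.82, 0.110) and Ext1 (-0.67, 0.156). Each kept its direction.

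**Figure D3:**
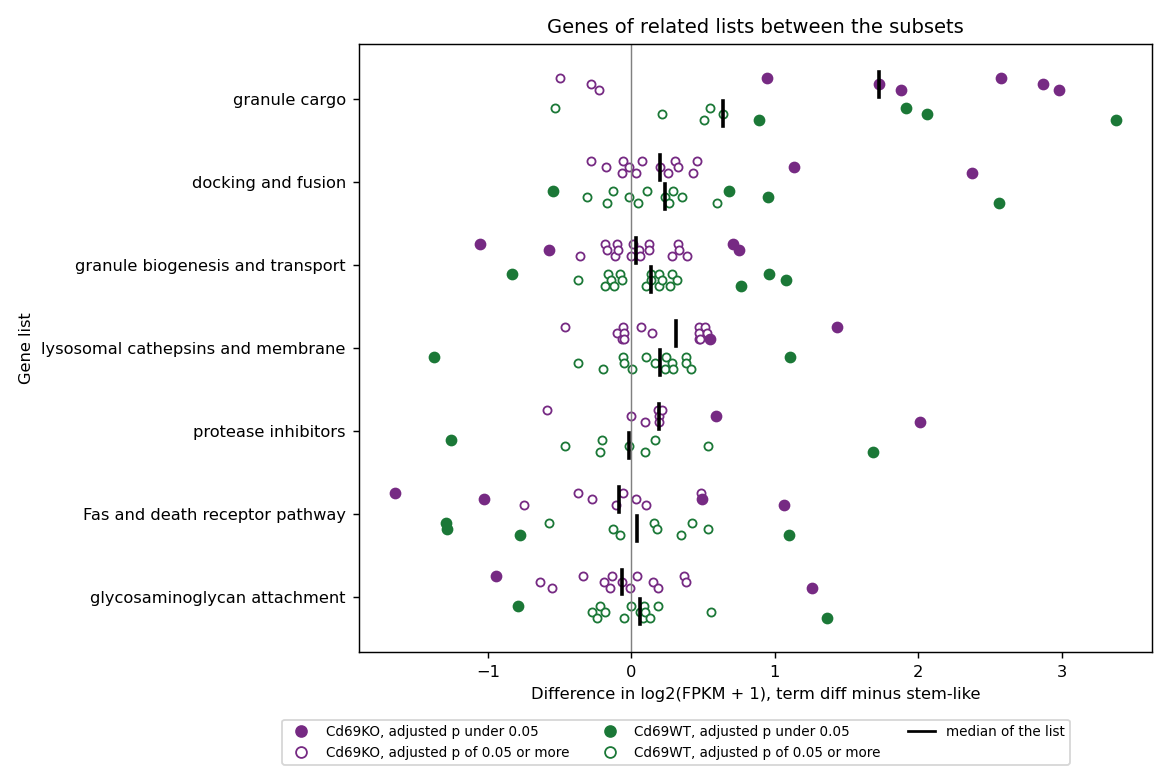
Difference between the subsets of each tested gene in 7 lists around the granule, term diff minus stem-like, as log2(FPKM + 1). Upper points of each list are Cd69KO and lower points Cd69WT, filled where the adjusted p is under 0.05, and a short black line marks the median, which is 1.72 in Cd69KO and 0.64 in Cd69WT for granule cargo.

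Between the genotypes 0 members passed by limma in term diff cells, where 0.194% of all genes passed. An unadjusted p under 0.05 was seen for 3 members and for 1481 of the 9782 tested genes. Nkg7 and Srgn had the largest differences of the members, with means 1.60-fold and 1.57-fold higher in Cd69KO than in Cd69WT term diff libraries. Nkg7 had 198 and 162 FPKM in Cd69KO term diff, against 118 and 107 FPKM in Cd69WT term diff libraries (0.67 ± 0.17, 95% interval 0.29 to 1.06, unadjusted p = 0.00373, adjusted p = 0.179, limma). Srgn had 125 and 112 FPKM in Cd69KO term diff, against 92.9 and 58.3 FPKM in Cd69WT term diff libraries (0.68 ± 0.22, 95% interval 0.16 to 1.20, unadjusted p = 0.016, adjusted p = 0.258).

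Lamp1 was the other member with an unadjusted p under 0.05 in term diff cells, at 10.4 and 9.88 FPKM in Cd69KO, against 8.53 and 7.43 FPKM in Cd69WT (0.31 ± 0.12, adjusted p = 0.288, limma). Rab27a (0.25), Ctsw (0.18), Ctsc (0.10), Fasl (0.02), Stx11 (-0.02), Unc13d (-0.08) and Serpinb9 (-0.09) had smaller differences. The adjusted p of these 7 ran from 0.468 to 0.978. The members' median was 0.14, beside -0.05 over all genes.

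With voom on the implied fragments, which called 342 genes in place of 19, Nkg7 (0.73, adjusted p = 0.00152) and Srgn (0.73, adjusted p = 0.0219) passed in term diff cells; no other alternative called a member there. The 9 CD8 T cell markers moved the same way, with 0 called, 8 above 0 and a median of 0.63: their summed level was 1331 to 1503 FPKM in Cd69KO term diff, against 1006 to 1092 FPKM in Cd69WT term diff libraries. The part of this shift in the Nkg7 and Srgn values was not tested. Of the related lists, Gzmd alone, named after its values were seen, passed between the genotypes in term diff cells, at 7.11 FPKM in Cd69KO, against 0.876 FPKM in Cd69WT (2.11 ± 0.24, adjusted p = 0.0256, limma), and its call ended without any of the 4 term diff libraries (adjusted p = 0.0706 to 0.212), with the replicate block (0.0586), with a pseudocount of 0.1 (0.210), with no filter (0.102) and with the filter of 5 FPKM (0.122).

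In stem-like cells 0 of the 10 members passed by limma, with 0 at an unadjusted p under 0.05, and 0 passed by voom, where 0.153% of all genes passed by limma. Of the 9782 tested genes, 710 had an unadjusted p under 0.05 there. Nkg7 had 91.6 and 99.97 FPKM in Cd69KO, against 78.3 and 90.2 FPKM in Cd69WT stem-like libraries (0.19, 95% interval -0.20 to 0.57). Stx11 had the lowest p, with 9.04 and 8.81 FPKM in Cd69KO, against 11.4 and 10.4 FPKM in Cd69WT (-0.26, 95% interval -0.56 to 0.04, adjusted p = 0.752, limma). Srgn, which had a difference of 0.68 in term diff cells, had one of 0.02 here, with a 95% interval of -0.50 to 0.54. The other members lay between 0.11 and 0.22, and the members' median was 0.15, beside 0.06 over all genes.

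Averaged over both subsets, the genotype difference of Nkg7 was 0.43 ± 0.12 (95% interval 0.16 to 0.70, adjusted p = 0.221, limma) and that of Lamp1 0.22 ± 0.08 (adjusted p = 0.346). No member passed by limma, where 0.542% of all genes passed, and with voom Nkg7 passed at 0.42 (adjusted p = 0.00761). By limma Nkg7 and Lamp1 had an unadjusted p under 0.05, as had 1212 of the 9782 tested genes. Nkg7, Lamp1 and Ctsw were higher in both Cd69KO libraries than in both Cd69WT libraries of each subset, where this held for 5.88% of all genes. The opposite order in each subset was seen for 0 members and 4.06% of all genes.

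The subset difference was not shown to depend on genotype for any member. The interaction, which subtracts the genotype difference of stem-like cells from that of term diff cells, passed for 0 of the 10 members by limma, with 0 at an unadjusted p under 0.05, and for 0 by voom, where 0.0307% of all genes passed by limma. Its unadjusted p was under 0.05 for 889 of the 9782 tested genes. The members' values ran from -0.26 for Unc13d to 0.66 for Srgn, with a median of -0.01 beside -0.10 over all genes. Rab27a had the narrowest gap between its subset differences, at 0.03, with a 95% interval of -0.47 to 0.53.

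**Figure D4:**
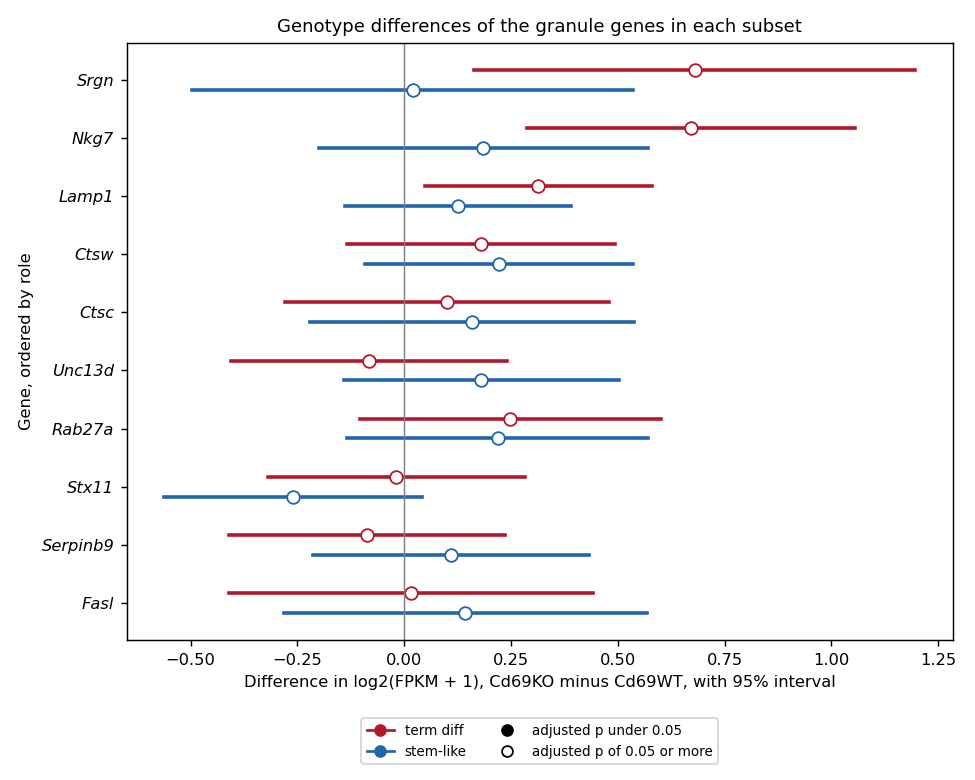
Difference of each granule gene between the genotypes, Cd69KO minus Cd69WT, as log2(FPKM + 1) with the 95% interval of the limma fit, in term diff (upper bar of each pair) and stem-like cells (lower bar). No point is filled, since no adjusted p is under 0.05, and the intervals of Srgn, Nkg7 and Lamp1 in term diff cells lie above 0.

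The genes with the most similar pattern to a called member were found by the root mean square distance between log2(FPKM + 1) profiles over the 8 libraries, each centred on its mean, among the 9782 tested genes. Nrp1 (0.05) and Stim2 (0.08) were nearest to Lamp1. Cwf19l2 (0.07) and Skp1a (0.08) were nearest to Stx11. Me2 (0.08) and Pmf1 (0.09) were nearest to Serpinb9, Cfl1 (0.11) and Arid3b (0.11) to Rab27a, and Sepn1 (0.11) and Atp5e (0.12) to Nkg7. These distances describe 8 libraries of 4 groups and carry no test. Sepn1 lay at 0.464 to 2.18 FPKM and Arid3b at 1.06 to 2.81 FPKM, levels at which the 1 added before the log2 narrows differences.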

How the data were processed

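The authors deposited 1 gene table per library in the layout of Cufflinks, with FPKM and the limits of its confidence interval, per the file headers. Per the labels, total RNA was made into libraries with a low-input SMARTer stranded kit and sequenced on a NextSeq500, single-end. Software listed in the submitters' processing notes was Cufflinks 2.2.1, TopHat 1.3.2, Bowtie2 2.3.4 and bcl2fastq 2.20, with build mm10. Annotation, strand setting and the total behind the FPKM are not given in the sources used here. No row overlapped a member's position.

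No read counts were given, so fragments were implied from the interval, as the square of 2 times the FPKM over its distance to the upper limit (2055411 to 2591061 per library); they are approximate and cover counting error only. Of 23746 rows, 3 genes had a value of other status and were left out. Values as deposited, as log2(FPKM + 1), were fitted for the 9782 rows that reached 1 FPKM in 2 or more libraries by limma 3.58.1 in R 4.3.3 (group means of all 8 libraries, empirical Bayes with a trend, 4 residual degrees of freedom, prior 4.2). The fit was tested on simulated data. Tests were 2-sided and adjusted by Benjamini and Hochberg over all 9782 rows, with a threshold of 0.05.

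Genes named are the members, Cd69, up to 4 called genes with the lowest p of each related list per subset comparison, the highest gene or defining genes of marker lists, and the 2 genes nearest to each called member; a few of these are not reported here. The members and lists were chosen with earlier results of these data known. Alternatives were pseudocounts of 0.1 and 5, no filter or 5 FPKM, 3 scalings, robust, voom, groups-only and blocked fits, and libraries left out.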

Additional observations from a re-analysis of the deposited data

Results flagged for a closer look

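The libraries of Srgn, the gene of the granule proteoglycan, had opposite order between the subsets in Cd69KO and Cd69WT. The share of all genes with such an opposite order was not determined, so the order alone is not read as a result. In Cd69KO both term diff libraries (125 and 112 FPKM) were above both stem-like libraries (95 and 112 FPKM, of which the higher was below by under 1 FPKM), whereas in Cd69WT both term diff libraries (92.9 and 58.3 FPKM) were below both stem-like libraries (108 and 95.6 FPKM). The test of this contrast, the interaction, gave 0.66 ± 0.32 as log2(FPKM + 1), with an unadjusted p = 0.0707 and an adjusted p = 0.553 by limma over all genes, so it did not pass. After quantile normalization the Cd69KO difference was -0.10 (adjusted p = 0.761).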

How the results depend on the processing

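Members called between the Cd69KO subsets numbered 4 as reported, 3 after quantile normalization and 1 with no filter on low values (Nkg7, Rab27a and Serpinb9 had adjusted p = 0.0538, 0.0945 and 0.0768), 0 to 4 with 1 library left out, and 4 in the other alternatives. Between the Cd69WT subsets they numbered 4 as reported, 2 with no filter (Rab27a 0.0879 and Stx11 0.0706), 3 with only the groups compared (Stx11 0.0658), 5 after quantile normalization (Ctsw gained, -0.51, 0.0439) and with voom (Srgn gained, -0.52, 0.0358), 2 to 4 with 1 library left out, and 0 without both Cd69WT replicate 2 libraries. Between the genotypes voom called 2 members in term diff cells and 1 over both subsets, against 0 as reported; every other alternative, and every one for stem-like cells and the interaction, called 0. Genes called in all ran from 287 (without Cd69KO stem-like replicate 1) to 1631 (voom) in Cd69KO, where 924 were reported and 501 passed with no filter. In Cd69WT they ran from 362 (without both replicate 2 libraries) to 1881 (voom), where 1278 were reported, 638 passed with no filter and 756 with only the groups compared. Between the genotypes they ran from 3 to 342 in term diff (19 reported), 4 to 43 in stem-like (15 reported) and 18 to 235 over both (53 reported), and from 0 (voom) to 105 (no filter) for the interaction (3 reported). Of the members, Stx11 and Ctsc rest on the fewest fragments.

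The labels number the libraries of each group 1 and 2. Deviations of same-numbered libraries from their group means correlated at -0.30 to 0.15 over the 6 pairs of groups, with the highest value between the Cd69WT subsets, whose replicate 2 libraries both had a lower share of small RNA in their FPKM sum. These values do not show that the numbers pair the libraries, and the labels do not say. With the replicate block 4, 4 and otherwise 0 members were called, as without it, and 746 genes in all passed in Cd69KO and 1070 in Cd69WT.

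Signs turned only among differences that did not pass, and the cause was not tested. After quantile normalization the values were -0.10 for Srgn between the Cd69KO subsets, and between the genotypes 0.0375 for Stx11 and -0.0184 for Fasl in term diff, -0.14 for Srgn in stem-like and -0.0432 for Serpinb9 over both, with interactions of 0.0205 for Ctsw and 0.050 for Ctsc. After median-of-ratios scaling they were 0.0333 for Stx11 in term diff and -0.0479 for Srgn in stem-like, with interactions of 0.0851 for Ctsw and 0.0563 for Ctsc. After scaling to an equal sum they were -0.00837 for Ctsc and -0.10 for Fasl in term diff, -0.00345 for Srgn in stem-like, -0.0178 for Unc13d and -0.0593 for Serpinb9 over both, and -0.0666 for the interaction of Rab27a. With voom they were 0.0223 for Stx11 in term diff, -0.0616 for Srgn in stem-like, -0.000998 for Serpinb9 over both, and 0.0808, 0.0381 and 0.0264 for the interactions of Ctsw, Ctsc and Fasl. Without both Cd69WT replicate 2 libraries they were 0.0621 for Unc13d in term diff, -0.0672 for Srgn in stem-like, -0.0317 for Serpinb9 over both and -0.10 for the interaction of Rab27a.

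With 1 library left out, the ranges that spanned 0 were -0.0529 to 0.458 for Ctsc and -0.168 to 0.122 for Unc13d between the Cd69WT subsets. Between the genotypes in term diff they were -0.228 to 0.0621 for Unc13d, -0.154 to 0.117 for Stx11, -0.243 to 0.0667 for Serpinb9 and -0.262 to 0.295 for Fasl. In stem-like they were -0.0961 to 0.136 for Srgn and -0.0972 to 0.414 for Ctsc, and over both subsets -0.0237 to 0.121 for Unc13d, -0.0662 to 0.0885 for Serpinb9 and -0.0595 to 0.219 for Fasl. For the interaction they were -0.150 to 0.0665 for Ctsw, -0.313 to 0.198 for Ctsc, -0.170 to 0.228 for Rab27a and -0.405 to 0.152 for Fasl.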
